A study of Danio rerio with 23 samples.

Results

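The cytosolic ribosomal protein genes were taken from the count table of zebrafish retinae as every gene whose symbol begins with rpl or rps and a digit, or with rplp, or is rpsa or fau, with the rps6k kinase genes left out. The rule found 84 of the 25281 genes of the table, with 46 genes of the large subunit, 36 of the small subunit and 2, rpl7l1 and rps19bp1, whose products are not counted among the core proteins of the ribosome. All 84 passed the filter on low counts, as did 22503 genes in all. Symbols were known for 23499 genes, and the rule names genes only by symbol. Rack1, whose product also sits on the ribosome, is outside the rule and is described with the translation genes.

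The table holds raw counts of poly(A)+ RNA in 17 libraries, 9 from control retinae (CTRL) and 8 from retinae after light-induced retinal damage (LIRD). Of the 23 samples in the labels, 6 had no column among these counts. The paper left out samples that stood apart from their replicates, and whether these 6 are those samples is not stated. The spread given here is that of the 17 libraries kept. The paper's methods describe larvae at 4 days post-fertilization, exposed to 50000 lux for 3.5 h in groups of 50, kept in the dark for 48 h and then dissected, whereas the labels describe adults that had 24 h of light at 15000 lux and were dissected without delay, and controls under standard light. Neither source gives a drug in these groups, and no mutation is named. The paper's methods name wild-type TU fish and the transgenic line Tg(fli:gal4;UAS:mCherry), without saying which gave the sequenced retinae. The paper describes a library as made from 50 pooled larval retinae, so the p-values measure the spread between pools labelled as biological replicates. Total counts lay between 70932500 and 150347000 per library. A division into library series was made here from the library numbers, not from a named batch. Replicates 1 and 2 of each group, whose numbers 7 to 10 alternate between the groups, were called the first series. The other 7 CTRL and 6 LIRD libraries were called the second series. In it CTRL lies within numbers 11 to 20 and LIRD within 22 to 29, so group and number order cannot be told apart.

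The eukaryotic ribosome joins a small subunit, which reads the mRNA, to a large subunit, which forms the peptide bond, and each subunit holds its own set of proteins on ribosomal RNA. The mRNAs of these proteins are mostly short and abundant, and in vertebrates they begin with a run of pyrimidines (the TOP motif) through which TOR signaling sets their translation. The teleost genome duplication left several of the genes in more than 1 copy, and a few, such as rpl22 and rps27, have paralogs in all vertebrates.

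Retinal marker genes were present in all libraries, with a summed level of 7662 to 16575 CPM (counts scaled to a common library total, after TMM factors) in CTRL and 7604 to 15469 CPM in LIRD for 9 of 10 markers found. The 4 skin keratin markers krt4, krt5, cyt1 and krt17 also summed to 6078 to 10489 CPM in CTRL and 4590 to 13978 CPM in LIRD, a level like that of the retinal markers. No marker found was at 0 in all libraries. The pair of CTRL 3 and CTRL 11 and the pair of LIRD 5 and LIRD 11 were closer than other replicates, with a chi-square per gene of 16.2 and 12.9 against at least 81.2 in other pairs of a group, but each pair differed by more than sampling noise, and they were kept as separate libraries since the labels number them as such. Whether a pair came from the same RNA was not tested, and if so n would be 8 in CTRL and 7 in LIRD. With each pair added up, 0 of 84 members were called and the median log2 fold change of the members was 0.46, against 0.41 with all libraries kept apart.

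The members took a share of the counts that varied more between libraries of 1 group than between the groups. In CTRL the share was 7.503%, 6.52%, 5.59%, 5.76%, 6.19%, 5.08%, 8.65%, 9.21% and 5.43% in replicates 1, 2, 3, 4, 5, 6, 8, 10 and 11. In LIRD it was 14.1%, 10.8%, 9.70%, 5.27%, 4.28%, 8.58%, 5.29% and 5.17% in replicates 1, 2, 4, 5, 6, 9, 10 and 11. LIRD replicates 1, 2 and 4 were above every CTRL library and LIRD replicate 6 was below every CTRL library, and the other 4 lay inside the range of CTRL. The means were 6.66% ± 1.47 (SD, n = 9) in CTRL and 7.90% ± 3.49 (SD, n = 8) in LIRD, so that the difference of the means was smaller than either group's SD.

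On the CPM scale the members summed to 65883 ± 20123 CPM (SD, n = 9) in CTRL and 85565 ± 46398 CPM (SD, n = 8) in LIRD. The lowest, median and highest sums were 44495, 57985 and 101468 CPM in CTRL and 36788, 73807 and 168035 CPM in LIRD. Of the 8 LIRD libraries, 4 were above the CTRL median and 4 below it, and the highest library of all had 4.57 times the sum of the lowest, both of them LIRD libraries. In bulk tissue, a higher share of cells rich in these mRNAs and more of the mRNA per cell cannot be told apart, nor can their opposites in the low libraries. Whether RNA quality or library making had a part in the spread was not tested. Since the members were chosen with results known, the sum was given no test.

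**Figure D1:**
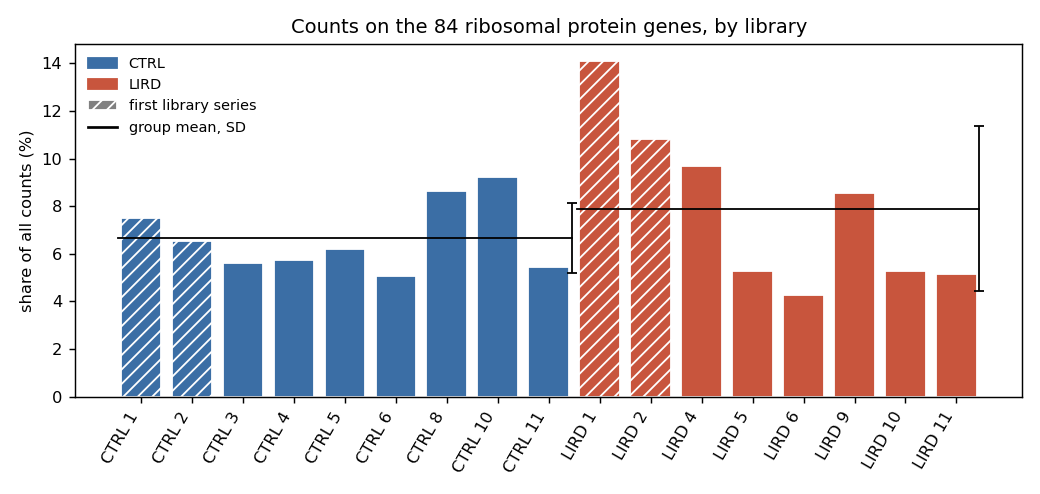
Share of all counts on the 84 ribosomal protein genes (%) in each library, CTRL in blue and LIRD in red, with hatched bars for the first library series and lines for the group means with their SD. LIRD 1 stands highest at 14.1% and LIRD 6 lowest at 4.28%, and 4 of the 8 LIRD libraries lie between the CTRL values of 5.08% and 9.21%.

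No member was called between LIRD and CTRL. A differentially expressed gene (DEG) had to differ by more than 1.5-fold in either direction with a false discovery rate (FDR) below 0.05 by edgeR's quasi-likelihood test of all 22503 genes, which 0 of 84 members and 9 genes of the table (0.0400%) reached. At an unadjusted p under 0.05 the count was still 0 of 84, where 7.64% of all genes passed. DESeq2 also called 0 of 84 members, against 78 genes (0.315%) of those it gave an adjusted p, and the lowest unadjusted p it gave a member was 0.0792.

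The fitted log2 fold changes of the members were nonetheless mostly above 0. They were above 0 in 83 of 84 members, against 53.8% of all genes, with a median of 0.41 over the members and 0.02 over all genes. Averaged as log2 CPM, the members deviated from their level over all libraries by 0.12 in LIRD and -0.11 in CTRL, a smaller difference. The median standard error (SE) of a member's log2 fold change was 0.29, and no FDR was below 0.697. The members rise and fall together from library to library, so these 83 values are not 83 separate observations. Large subunit genes had a median log2 fold change of 0.38 and small subunit genes one of 0.44. Leaving out LIRD replicate 1 lowered the median of all members to 0.18, and leaving out LIRD replicate 6 raised it to 0.52.

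The comparison was also made within each library series. In the first series, with 2 CTRL and 2 LIRD libraries, the median log2 fold change of the members was 1.15 and none was below 0. The LIRD libraries of this series had the highest shares of member counts of all 17 libraries, at 14.1% and 10.8%. Of the 84 members, 62 were DEGs there, all of them higher in LIRD, where 17.2% of all genes tested were DEGs by the same rule. They were 32 large subunit genes, 28 small subunit genes, rpl7l1 and rps19bp1, with log2 fold changes from 0.75 (rps19bp1) to 1.67 (rps21). Since the members rise and fall together, these 62 calls are not 62 separate observations. At an unadjusted p under 0.05 the count was 76 of 84, against 39.1% of all genes. The number of calls changed with each library left out, for the members and for all genes, where the lone library left in a group was assumed to vary like the other group. Without CTRL replicate 1 there were 3 member DEGs (5.40% of all genes), without CTRL replicate 2 there were 0 (0.0132%), without LIRD replicate 1 there were 54 (15.1%) and without LIRD replicate 2 there were 77 (28.6%). The median log2 fold change of the members was between 0.88 and 1.34 in these fits.

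In the second series, with 7 CTRL and 6 LIRD libraries, the median was 0.03. There 54 members were above 0 and 30 below, and the lowest unadjusted p of a member was 0.0895, with all FDRs at 1.00. The values ran from -0.81 (rps11l) to 0.21 (rpl35). As a contrast in 1 fit of all libraries, chosen after the data were seen, the first series exceeded the second by a median log2 difference of 1.103 over the members and 0.0021 over all genes. The difference passed an FDR of 0.05 in 0 of 84 members and 0% of all genes, with member FDRs between 0.269 and 0.768, and 5 members and 3776 of the 22503 genes had an unadjusted p under 0.05. At that p the share was smaller in the members than over all genes, and no single gene passed the FDR. The first series held 2 libraries a group, and why no gene passed was not tested.

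**Figure D2:**
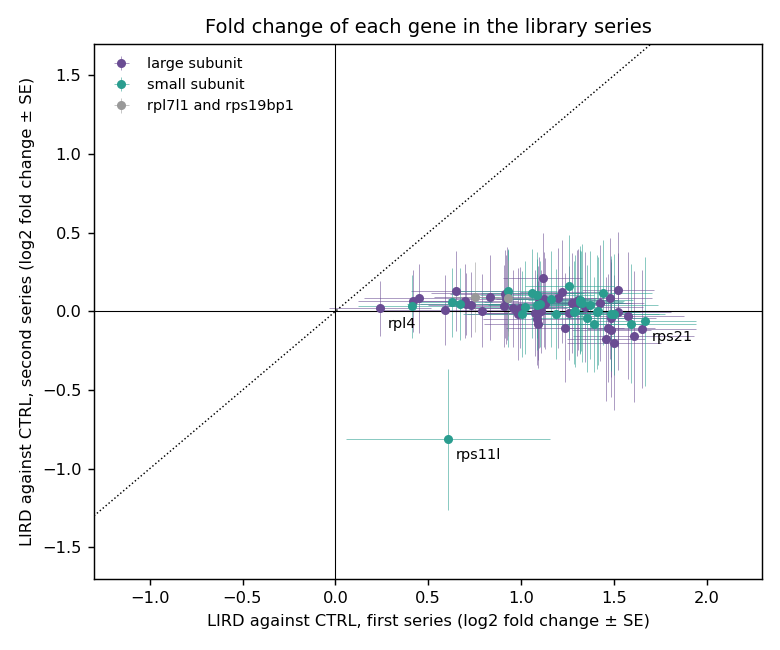
Log2 fold change of LIRD against CTRL for 79 of the 84 ribosomal protein genes in the first library series (horizontal axis) and in the second (vertical axis), with bars for the standard errors, the subunit by colour, and a dotted line of equal values. All points lie right of 0 on the horizontal axis, where the median of the 84 genes is 1.15, while on the vertical axis they spread around 0, where it is 0.03.

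Large subunit genes formed 46 of the members. Rpl3, which lies near the site of peptide bond formation, had 1840, 2147 and 3320 CPM as the lowest, median and highest CTRL values and 1432, 2461 and 4664 CPM in LIRD. Its groups overlapped, with 2 LIRD libraries above all CTRL libraries, at a log2 fold change of 0.19 (SE 0.21, FDR = 0.762). Rpl4, another of the larger proteins of the subunit, had 1589, 1835 and 2608 CPM in CTRL and 1329, 1939 and 2798 CPM in LIRD, and its highest library had 2.10 times its lowest. Rpl11, which with rpl5 binds the 5S ribosomal RNA and in mammals can inhibit Mdm2 when free, had 290, 414 and 1012 CPM in CTRL and 217, 605 and 2363 CPM in LIRD. The log2 fold change of rpl11, at 0.66 (SE 0.44, FDR = 0.697), was the highest of the members, and of its 8 LIRD libraries 2 were above the CTRL range, 3 below it and 3 inside it.

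Rpl35, which sits at the exit of the peptide tunnel, had the smallest p of any member. Its values were 503, 600 and 1016 CPM in CTRL and 429, 854 and 1393 CPM in LIRD, and 4 of the 8 LIRD libraries were above all of CTRL while the other 4 were under the CTRL median. The log2 fold change was 0.43 (SE 0.24, unadjusted p = 0.0948 and FDR = 0.697 in edgeR's test). Rpl13, another large subunit protein, had 1050, 1178 and 2011 CPM in CTRL and 903, 1356 and 2310 CPM in LIRD, with a log2 fold change of 0.18 (SE 0.19, FDR = 0.745).

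The ribosomal stalk, which recruits elongation factors, is built from rplp0 and pairs of the acidic proteins rplp1 and rplp2. Rplp0 had 1945, 2380 and 4048 CPM in CTRL and 1548, 3015 and 7230 CPM in LIRD. LIRD replicate 1 held its highest value, and 3 LIRD libraries were above all CTRL libraries, at a log2 fold change of 0.37 (SE 0.28, FDR = 0.701). Rplp1 had 679, 855 and 1596 CPM in CTRL and 487, 1060 and 2226 CPM in LIRD (log2 fold change 0.30, SE 0.27, FDR = 0.719).

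Among the 36 small subunit genes, rps2, a protein near the mRNA entry channel, took the most counts of all members, with 1689, 2302 and 4895 CPM in CTRL and 1357, 3306 and 10471 CPM in LIRD. The CPM values are not per length and set no order between genes in transcripts. Its LIRD libraries spread to both sides of CTRL, and its log2 fold change of 0.51 (SE 0.37, FDR = 0.698) was not called. Rps7 had 622, 860 and 1543 CPM in CTRL and 508, 1210 and 2206 CPM in LIRD, with a log2 fold change of 0.50 (SE 0.29, FDR = 0.697). Rps15, at the head of the subunit, had 503, 628 and 1267 CPM in CTRL and 407, 1004 and 2062 CPM in LIRD, with a log2 fold change of 0.53 (SE 0.31, FDR = 0.697).

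Rps27a, made as a fusion with ubiquitin, had 800, 993 and 1697 CPM in CTRL and 691, 1406 and 2844 CPM in LIRD, with a log2 fold change of 0.40 (SE 0.26, FDR = 0.697). In rps7, rps15 and rps27a alike, 4 LIRD libraries were above all of CTRL and 4 below the CTRL median. Fau, made as a fusion with a ubiquitin-like protein, had 313, 417 and 914 CPM in CTRL and 258, 592 and 1696 CPM in LIRD, with a log2 fold change of 0.47 (SE 0.35, FDR = 0.701). The ratio of the summed large to the summed small subunit genes was 1.59 ± 0.06 (SD, n = 9) in CTRL and 1.56 ± 0.15 (SD, n = 8) in LIRD, and it was lowest, at 1.33, in LIRD replicate 1 and highest, at 1.71, in LIRD replicate 11.

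The members varied together. Over the 17 libraries the first principal component of their log2 CPM values held 95.5% of the variance and the second 1.83%. The correlation of a member with the mean of the other members, given as a description since all points share library and depth, had a median r of 0.99 and was at least 0.95 in 76 members. It was under 0.9 in 3 members, among them rpl4 (0.87) and rps11l (0.17).

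**Figure D3:**
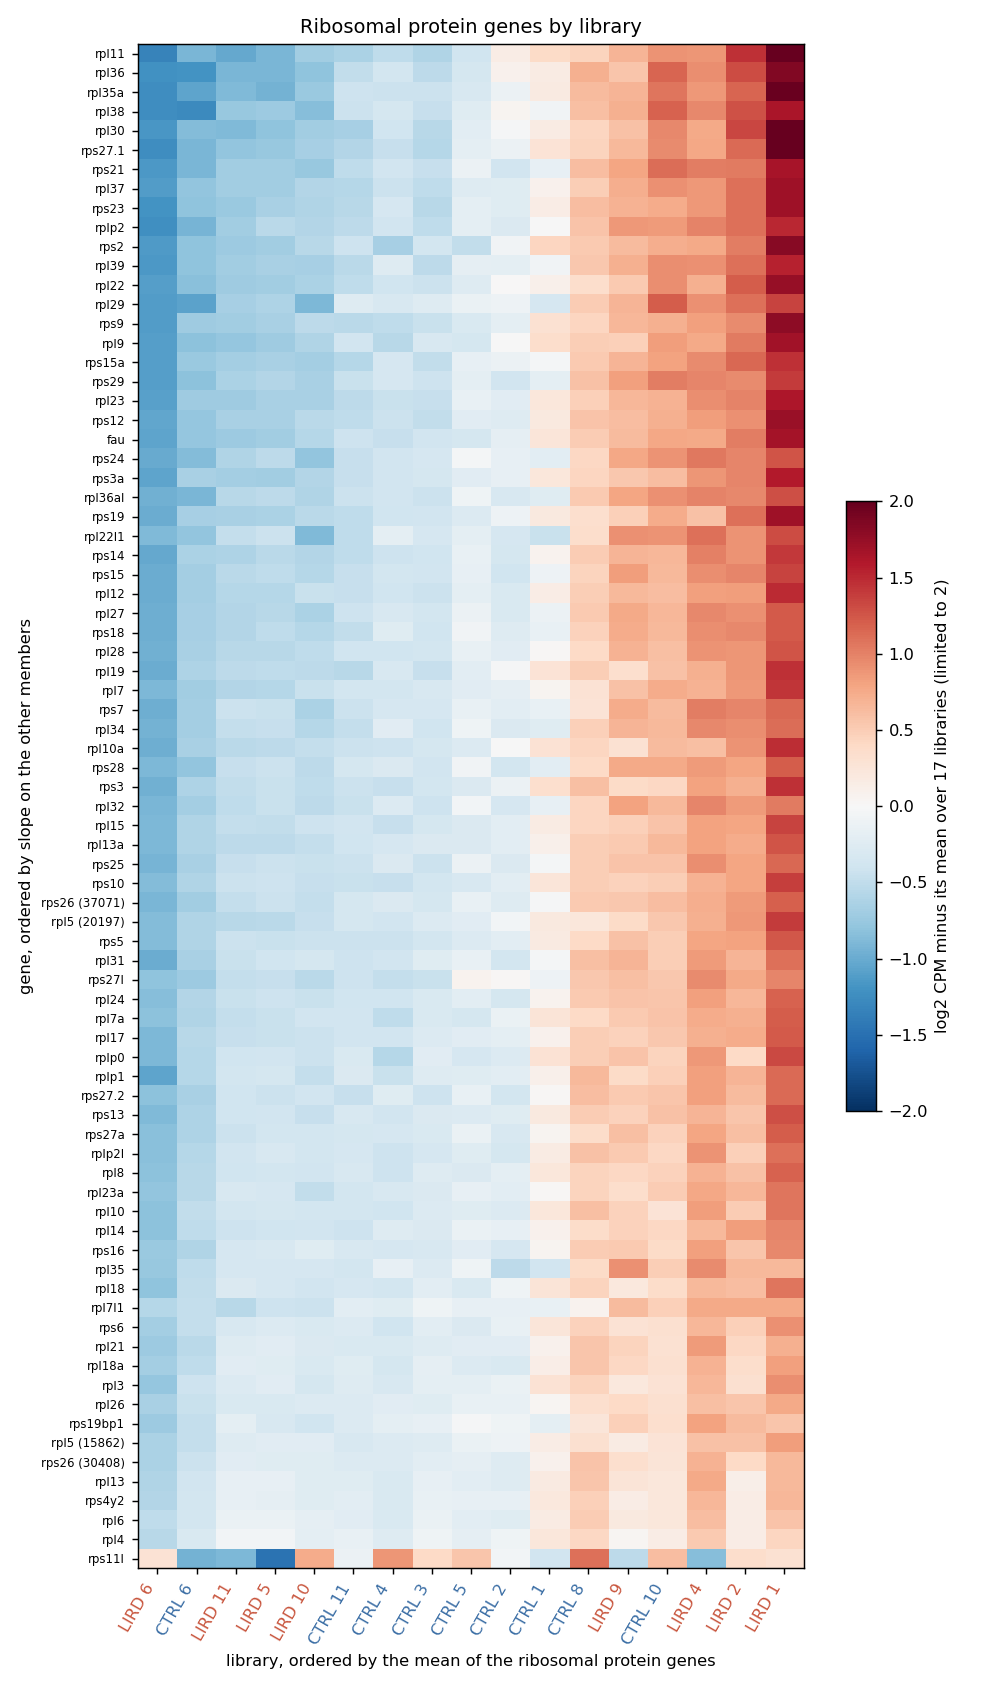
Log2 CPM of 79 of the 84 genes minus its mean over 17 libraries, with libraries ordered by the mean of the genes and genes by their slope on the other members (repeated symbols carry the last digits of the identifier). The order of libraries from LIRD 6 to LIRD 1 mixes the groups, and of the rows drawn rps11l, the last, lacks the common gradient while rpl4 above it shows little of it.

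The genes shared this direction in unequal size. The slope of a member's log2 CPM on the mean of the other members, again a description over 17 libraries, was over 1.25 in 14 members, led by rpl11 (1.53), rpl36 (1.49), rpl35a (1.47), rpl38 (1.42), rpl30 (1.41) and rps27.1 (1.41). The slope was under 0.75 in 15 members, among them rpl4 (0.40), rpl6 (0.49), rps4y2 (0.53), rpl13 (0.56), rpl3 (0.67) and rps6 (0.71).

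In single genes the slopes meant quite different ranges. Rpl35a had 251, 418 and 1099 CPM as the lowest, median and highest CTRL values and 219, 572 and 2043 CPM in LIRD, and rpl36 had 140, 250 and 720 CPM in CTRL and 138, 327 and 1154 CPM in LIRD. By contrast rpl6 had 1533, 1714 and 2815 CPM in CTRL and 1402, 2005 and 3033 CPM in LIRD. The log2 fold changes of rpl35a, rpl36 and rpl6 were 0.51 (SE 0.42), 0.45 (SE 0.42) and 0.16 (SE 0.17), none of them called.

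A member's residual was its log2 CPM minus the mean of the other members. A member with a flatter or steeper slope than the others keeps part of the common trend in its residual. The slopes were 0.40 in rpl4, 1.14 in rpl22l1, 0.53 in rps4y2 and 0.19 in rps11l. The residual's difference of means between LIRD and CTRL was -0.17 in rpl4, 0.13 in rpl22l1 and -0.13 in rps4y2, a gene of the rps4 family. In rps11l, at 3 to 23 counts, it was -0.72. These differences were not tested.

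Rps11l was the member with the lowest level and the one with a log2 fold change below 0. Its counts ran from 3 to 23 per library, with 0.0425, 0.135 and 0.232 CPM in CTRL and 0.0242, 0.0939 and 0.177 CPM in LIRD. The groups overlapped, 1 of 8 LIRD libraries was above the CTRL median, and the log2 fold change was -0.49 (SE 0.37, FDR = 0.702). In the first series it was 0.61 (SE 0.55) and in the second -0.81 (SE 0.45). The 2 members outside the ribosome followed the trend at low levels. Rps19bp1, which binds the rps19 protein, had 12.3, 15.3 and 21.7 CPM in CTRL and 10.4, 19.5 and 29.9 CPM in LIRD, with a log2 fold change of 0.27 (SE 0.19, FDR = 0.697) and an r of 0.94.

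Paralogs of 1 family can be compared inside a library, where what both share in equal size drops out. Where the slopes of the copies differ, part of the common trend stays in the ratio. The slopes were 1.41 and 0.93 in rps27.1 and rps27.2, and 0.64 and 0.98 in rpl5 ENSDARG00000015862 and ENSDARG00000020197. Within-library log2 ratios of 10 pairs, 8 of them given here, were compared between 9 CTRL and 8 LIRD libraries by an exact two-sided permutation test with Benjamini-Hochberg adjustment over the 10 pairs. Over the 8, the differences ran from -0.12 to 0.08 on the log2 scale, the exact p-values from 0.398 to 0.940, and the adjusted p was 0.940 in each. Reads that fit both copies of a close pair may be lost or misplaced in counting, so the level of a ratio is uncertain.

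**Figure D4:**
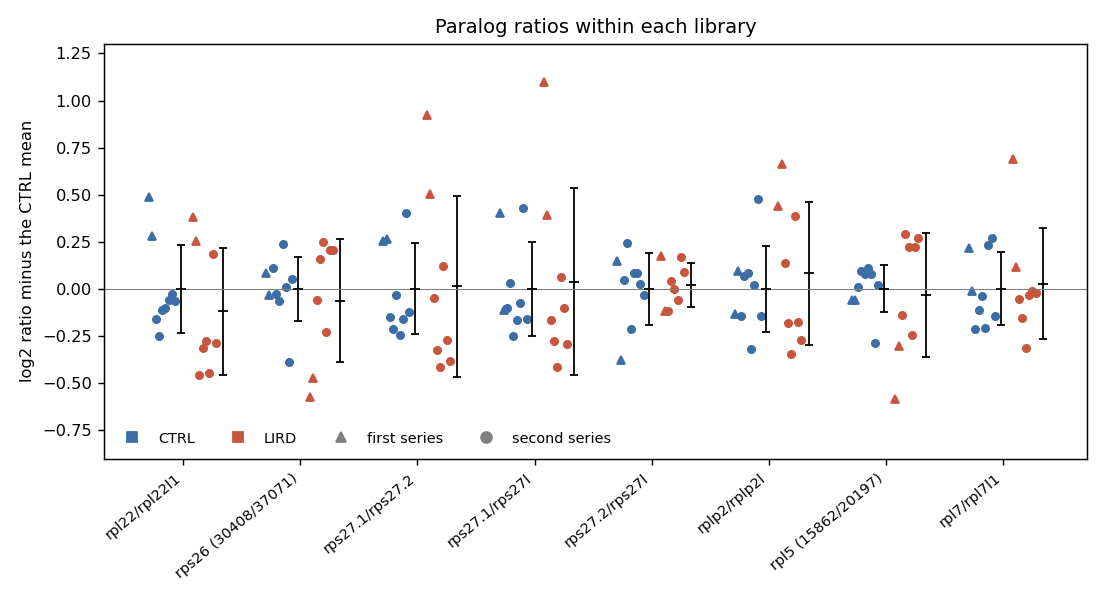
Log2 ratio of each paralog pair within each library minus its CTRL mean, for CTRL (blue) and LIRD (red), with triangles for the first library series, circles for the second, and bars for the group means with their SD. The groups overlap in all 8 pairs drawn, and the 4 libraries of the first series stand highest in rpl22 over rpl22l1.

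Rpl22 is a large subunit protein that the ribosome can spare, and rpl22l1 is its paralog, which in mouse is repressed by rpl22. Rpl22 had 207, 310 and 703 CPM in CTRL and 171, 384 and 1237 CPM in LIRD, and rpl22l1 had 77.4, 106 and 250 CPM in CTRL and 72.3, 175 and 331 CPM in LIRD. Both were spread as the other members were, with log2 fold changes of 0.49 (SE 0.36, FDR = 0.699) and 0.53 (SE 0.33, FDR = 0.697). The log2 ratio of rpl22 over rpl22l1 was 1.52 ± 0.23 (SD, n = 9) in CTRL and 1.40 ± 0.34 (SD, n = 8) in LIRD, a difference of -0.12 (SE 0.14, exact permutation p = 0.398).

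The ratio was higher in the first library series than in the second, in both groups. It was 2.01 and 1.803 in CTRL replicates 1 and 2 and 1.90 and 1.78 in LIRD replicates 1 and 2, all of the first series. In the second series it lay between 1.27 and 1.49 in CTRL. In LIRD replicates 4, 5, 6, 9 and 11 of that series it was 1.07, 1.21, 1.25, 1.07 and 1.23, below that CTRL range. LIRD replicate 10 stood above the range, at 1.71. These splits were seen in the data and were given no test.

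The rps27 family has 3 members here, of which rps27l in mammals is a p53 target. Rps27.1 had 265, 434 and 956 CPM in CTRL and 209, 545 and 2060 CPM in LIRD, rps27.2 had 277, 370 and 671 CPM in CTRL and 247, 483 and 961 CPM in LIRD, and rps27l had 6.68, 10.3 and 16.2 CPM in CTRL and 6.30, 12.4 and 21.8 CPM in LIRD. The log2 fold changes were 0.58 (SE 0.40), 0.35 (SE 0.27) and 0.34 (SE 0.27), with FDRs of 0.697, 0.702 and 0.703. The log2 ratio of rps27.1 over rps27.2 was 0.18 ± 0.24 (SD, n = 9) in CTRL and 0.19 ± 0.48 (SD, n = 8) in LIRD (difference 0.01, SE 0.19, exact permutation p = 0.940). It was highest in LIRD replicate 1, at 1.1002, and without that library the difference was -0.12. The ratio of rps27.2 over rps27l was the steadier, at 5.29 ± 0.19 (SD, n = 9) and 5.31 ± 0.12 (SD, n = 8).

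Rpl5 is on 2 rows of similar level. ENSDARG00000020197 had 544, 708 and 1205 CPM in CTRL and 452, 841 and 2181 CPM in LIRD, and ENSDARG00000015862 had 723, 918 and 1250 CPM in CTRL and 647, 990 and 1787 CPM in LIRD. Their log2 fold changes were 0.39 (SE 0.28, FDR = 0.697) and 0.25 (SE 0.19, FDR = 0.702). The log2 ratio of ENSDARG00000015862 over ENSDARG00000020197 was 0.30 ± 0.12 (SD, n = 9) in CTRL and 0.26 ± 0.33 (SD, n = 8) in LIRD. LIRD replicates 1 and 2 held its lowest values, at -0.29 and -0.0095, while the highest value, 0.59, was also in LIRD.

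Rps26, at the mRNA exit, is likewise on 2 rows. ENSDARG00000030408 had 293, 342 and 585 CPM in CTRL and 254, 419 and 645 CPM in LIRD (log2 fold change 0.21, SE 0.19), and ENSDARG00000037071 had 135, 183 and 336 CPM in CTRL and 116, 241 and 501 CPM in LIRD (log2 fold change 0.36, SE 0.27). The slopes of the rows were 0.62 and 0.98. Their log2 ratio was 0.88 ± 0.17 (SD, n = 9) in CTRL and 0.82 ± 0.33 (SD, n = 8) in LIRD, and the lowest values, 0.31 and 0.41, were in LIRD replicates 1 and 2.

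For rpl7 and rpl7l1, whose product in mammals is linked to ribosome assembly, the log2 ratio was 5.94 ± 0.19 (SD, n = 9) in CTRL and 5.97 ± 0.30 (SD, n = 8) in LIRD. Rpl7 had 855, 1193 and 2314 CPM in CTRL and 743, 1553 and 3751 CPM in LIRD, and rpl7l1 had 16.04, 20.02 and 31.2 CPM in CTRL and 15.01, 25.8 and 38.0 CPM in LIRD. In the first series both were DEGs, rpl7 at 1.26 (SE 0.30, FDR = 0.0293 in edgeR's test) and rpl7l1 at 0.93 (SE 0.12, FDR = 0.00948 in edgeR's test). The stalk paralogs rplp2 and rplp2l had a log2 ratio of -1.57 ± 0.23 (SD, n = 9) in CTRL and -1.49 ± 0.38 (SD, n = 8) in LIRD. Rplp2 had 115, 179 and 394 CPM in CTRL and 93.6, 275 and 621 CPM in LIRD, and rplp2l had 427, 504 and 952 CPM in CTRL and 353, 697 and 1361 CPM in LIRD.

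Other genes of the translation apparatus were read from lists that had been chosen with earlier results known. Of the translation factors and other genes with TOP-type mRNAs, 42 of 58 listed were tested, with a median log2 fold change of 0.16 and 0 DEGs. At an unadjusted p under 0.05, where 1103 of all 22503 genes were higher and 616 lower, 0 of the 42 were higher and 1 lower. The one lower gene was pabpc1b, a poly(A)-binding protein, with 109, 119 and 130 CPM in CTRL and 96.6, 105 and 123 CPM in LIRD (log2 fold change -0.16, SE 0.06, unadjusted p = 0.0184, FDR = 0.544 in edgeR's test). Rack1, a scaffold on the small subunit, had a log2 fold change of 0.34 (SE 0.26, FDR = 0.702). Tpt1, a classical TOP mRNA, stood at 0.41 (SE 0.26), and the elongation factor gene eef1a1l1 at 0.12 (SE 0.18).

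Ribosome biogenesis genes, which process the ribosomal RNA and assemble the subunits, were closer to no change. Of 60 listed, 56 were tested, with a median log2 fold change of 0.05 and 0 DEGs. At an unadjusted p under 0.05 there were 0 genes in either direction, against 7.64% of all genes. Fbl, the methyltransferase of box C/D particles, had 49.4, 68.4 and 84.5 CPM in CTRL and 49.7, 71.8 and 92.6 CPM in LIRD, and the nucleolar gene ncl had 502, 579 and 677 CPM in CTRL and 499, 572 and 616 CPM in LIRD. Neither showed the spread of the members. Of the 38 genes listed under TOR signaling, 29 were tested, with a median of 0.00046 and 0 DEGs. The list is wider than the signaling components, as it holds larp genes. At an unadjusted p under 0.05, which 7.64% of all genes passed in either direction, 0 of the 29 were higher and 2 lower. These were larp4ab (log2 fold change -0.47, SE 0.16, unadjusted p = 0.00894, FDR = 0.474 in edgeR's test) and larp1, a TOP mRNA-binding repressor (-0.22, SE 0.09, unadjusted p = 0.0317, FDR = 0.611 in edgeR's test), and for each of them 7 of 8 LIRD libraries were below the CTRL median.

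Among lists with no role in the cytosolic ribosome, mitochondrial ribosomal protein and small respiratory chain subunit genes moved with the members from library to library. Genes of very long proteins mostly moved the other way. The mean log2 deviation of the members from their level over all libraries was 1.26 in LIRD replicate 1 and -0.91 in LIRD replicate 6. In the same libraries the mean deviation was 0.75 and -0.56 for 75 mitochondrial ribosomal protein genes and 0.88 and -0.72 for 78 genes of small respiratory chain subunits. It was -0.79 and 0.25 for 15 genes of very long proteins. The median log2 fold changes of these lists were 0.25, 0.30 and -0.14, with 74 of 75, 76 of 78 and 0 of 15 genes above 0, and 0 DEGs in each. At an unadjusted p under 0.05, which 7.64% of all genes passed, the respiratory list had 1 gene higher and the others none in either direction.

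**Figure D5:**
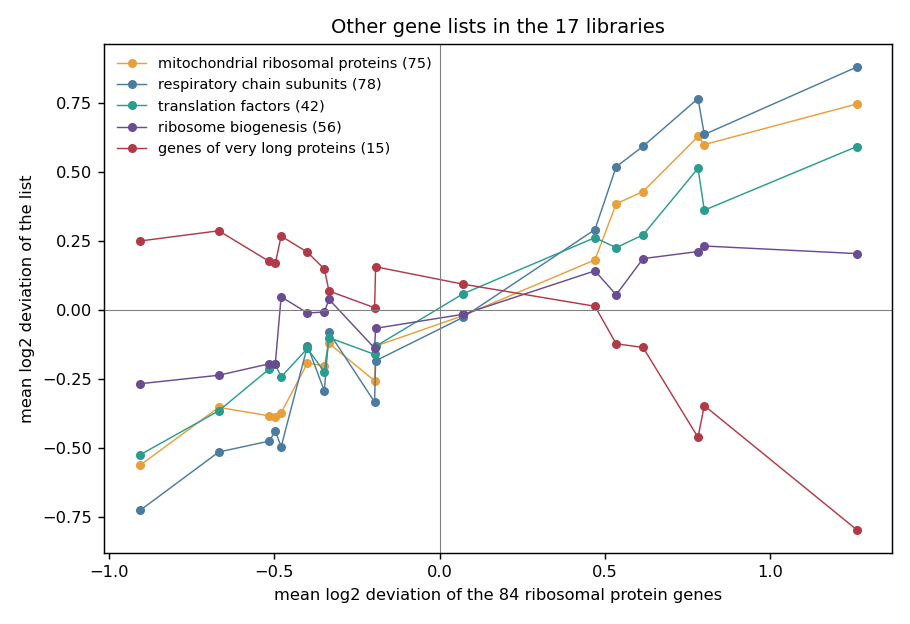
Mean log2 deviation of each list from its level over the 17 libraries (vertical axis) against that of the 84 ribosomal protein genes (horizontal axis), 1 point per library and list, joined in the order of the horizontal axis. Mitochondrial ribosomal protein genes and genes of small respiratory chain subunits rise from left to right. Ribosome biogenesis genes rise less, and the genes of very long proteins end lowest, at -0.79 in LIRD 1.

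Markers of some other tissues and cell types, though not of all, were also high in the library with the most ribosomal protein counts. In LIRD replicate 1 the summed erythroid markers (3 of 4 found) stood at 1039 CPM, where CTRL ran from 173 to 355 CPM and LIRD from 263 CPM up. In LIRD replicate 6, with the fewest ribosomal protein counts, the erythroid markers were at 376 CPM, also above all of CTRL. The skin, skeletal muscle and exocrine pancreas markers (4 of 4, 3 of 5 and 3 of 4 found) were at 13978, 2441 and 2700 CPM in LIRD replicate 1. These were the highest values of LIRD. In LIRD replicate 6 they were at 4590, 1067 and 730 CPM, of which the 730 CPM of pancreas lay inside its CTRL range of 236 to 2127 CPM. Among the muscle genes the creatine kinase ckma reached 1675 CPM in LIRD against at most 922 CPM in CTRL, while the myosins myhz1.1 and myhz2 reached 639 and 518 CPM in LIRD against 841 and 558 CPM in CTRL. The lens and pigment cell markers (2 of 4 found in each) were at 891 and 327 CPM in LIRD replicate 1, inside the CTRL ranges of 274 to 1719 and 168 to 341 CPM. The microglia markers (3 of 4 found) were at 681 CPM there, above the 347 to 541 CPM of CTRL. Most of this sum was apoeb, which reached 668 CPM in LIRD. The other genes found, csf1ra and c1qa, reached at most 21.5 and 0.753 CPM in either group. In LIRD replicates 1 and 6 the retinal markers were at 9996 and 9458 CPM. The part of tissue make-up, of RNA quality or library making, and of what the short and long genes share, in the level of the members was not tested.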

How the data were processed

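Poly(A)+ RNA of zebrafish retinae was sequenced in 9 CTRL and 8 LIRD libraries. The authors trimmed the reads (Trimmomatic 0.39), aligned them to GRCz11 with STAR (2.7.9a in the submitters' notes, another version in the paper) and counted them per gene, by strand, with featureCounts (Subread 2.0.1 in the notes), and deposited raw counts without normalization. They left out samples that stood apart in principal components. Multi-mapping settings are not given in the sources used here. All 17 columns were mapped to samples by library name.

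Symbols came from a table of gene identifiers (23499 of 25281 matched). No sequences or lengths of the members were used, and the planned comparison of short and long genes by protein length was replaced by gene lists. The members and the lists were chosen with earlier results of these data known.

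In R 4.3.3, edgeR 4.0.16 was run with TMM factors, filterByExpr (22503 genes), robust dispersions, glmQLFit and glmQLFTest. SEs of log2 fold changes were taken as the change over the root of its F statistic. FDRs are Benjamini-Hochberg values over all genes tested. Log2 CPM values used a prior count of 2. Paralog ratios were compared by exact permutation of 9 against 8 libraries, which can give p-values down to 8.23e-05. Some genes are not reported here singly, but the counts, sums and medians over the 84 members include them. Members named with values were all members of paralog families, the 5 with the smallest p in each direction, the 3 with the highest and lowest levels and the 5 least alike the others, and further members were picked after their values were seen. Total counts of 70932500 to 150347000 per library made the spread between libraries, not counting error, the limit for all members but rps11l. The alternatives were DESeq2 1.42.0, limma-voom (limma 3.58.1), other scalings, filters and thresholds, the library series as a covariate or alone, the replicate block, near-identical libraries added up, and each library left out. The scripts were tested on simulated data. Plots were made with matplotlib.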

Additional observations from a re-analysis of the deposited data

Results flagged for a closer look

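In 66 groups of 8 or 9 libraries, single libraries stood apart by Dixon's criterion in 4, close to the 1 in 20 or so that chance gives. The groups share the same libraries, so they are not separate observations. CTRL replicate 10 had the lowest CTRL log2 ratio of the rps26 rows ENSDARG00000030408 over ENSDARG00000037071, 0.494, where the other CTRL libraries lay between 0.818 and 1.12. The same library had the lowest CTRL log2 ratio of the rpl5 rows ENSDARG00000015862 over ENSDARG00000020197, 0.00766, against 0.235 to 0.408 in the others. Its rpl7l1 level was the highest of CTRL, 31.2 CPM against 16.04 to 23.4 CPM. In LIRD replicate 1 the log2 ratio of rpl7 over rpl7l1 was 6.63, against 5.63 to 6.06 in the other LIRD libraries. CTRL replicate 10 had the highest share of counts on the members in CTRL, at 9.21%, and LIRD replicate 1 the highest of LIRD, at 14.1%.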

How the results depend on the processing

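The number of DEGs over all genes was 9, and it was 78 with DESeq2, 15 with limma-voom, 14 with at least 10 counts in every library, 17 with the library series as a covariate, 5 with near-identical libraries added up, 4 in the second series alone, 3891 in the first series alone, and 7 to 39 with each library left out, the highest without LIRD replicate 10. Member DEGs stayed at 0 in all of these but the first series alone, with 62 of 84 (17.2% of all genes), where leaving out a library gave 0 (0.0132% of all genes) to 77 (28.6%) member DEGs and a median log2 fold change of 0.88 to 1.34. Over all libraries that median was 0.41, and it was 0.25 with limma-voom, 0.28 with the series covariate, 0.03 in the second series, 1.15 in the first, and 0.18 to 0.52 with each library left out. The log2 ratio of the mean summed CPM, 0.38, was 1.06 in the first series and 0.16 to 0.49 with each library left out. Other scalings moved the median log2 fold change of all genes by under 0.1, and the members' median under them is not given here.

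Replicate numbers were not used as pairs in the main test, and a check on so few numbers cannot decide whether they pair the samples. Of 7 shared numbers, 4 correlated over 0.1 (from -0.33 to 0.47) and 3 matched best with their own number. With the number as a replicate block there were 0 DEGs over all genes, the members' median was 0.23, and the differences of the log2 ratios became -0.0454 (rps27.1/rps27.2) and 0.0111 (rpl5).

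In the second series alone 54 members were above 0, and the log2 fold changes of rpl7 (-0.00931), rpl22 (-0.11), rps27.1 (-0.0784) and rps26 ENSDARG00000037071 (-0.0159) turned negative, none past a threshold. In the first series rps11l turned to 0.61. The differences of paralog ratios, none past a threshold, also turned in the second series, to 0.10 (rps26), -0.14 (rps27.1/rps27.2), -0.16 (rps27.1/rps27l), -0.0121 (rps27.2/rps27l), -0.0797 (rplp2/rplp2l), 0.0882 (rpl5) and -0.0679 (rpl7/rpl7l1). With each library left out they ran from -0.11 to 0.00966 (rps26), -0.12 to 0.0756 (rps27.1/rps27.2), -0.11 to 0.10 (rps27.1/rps27l), -0.0243 to 0.0533 (rps27.2/rps27l), -0.00020 to 0.14 (rplp2/rplp2l), -0.0786 to 0.0463 (rpl5) and -0.0671 to 0.0766 (rpl7/rpl7l1). The cause of these changes was not tested. The log2 fold changes of the 23 members followed singly kept their direction with every library left out, though that of rpl4 fell to 0.0021 without LIRD replicate 4. Most of these members share the common trend, so they are not 23 separate observations.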
